A study of Mus musculus with 4 samples.

Results

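The cells described here are lung cells that carried collagen mRNA together with mRNA of the inflammatory genes Il6, Mmp3 and Cxcl1, and they are called Il6 Mmp3 Cxcl1 cells, or members, below. They were chosen from all cells of 8 single-cell count matrices, called libraries below. The choice was by a fixed rule on unique molecular identifiers (UMIs, each counting 1 captured mRNA molecule). A cell had to hold 200 to 7500 genes, at most 15% mitochondrial UMIs and at least 2 UMIs of Col1a2. At least 3 of the 5 genes Il6, Mmp3, Cxcl1, Fgf23 and Itpkc had to be seen with 1 or more UMIs. Lcn2 and Cthrc1, which mark inflammatory and fibrotic fibroblasts, were each limited to 1 UMI, and the adventitial gene Pi16, the peribronchial gene Hhip, the immune gene Ptprc, the endothelial gene Cdh5 and the epithelial gene Epcam had to be at 0. The rule found 1179 members among 30860 cells within the limits, out of 32121 deposited, which was 3.82% of cells. They were 7.43% of the 15864 cells with at least 2 UMIs of Col1a2 and none of Ptprc, Cdh5 and Epcam, called gate cells below.

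The lungs came from 2 wild-type (WT) and 2 Tubb3-/- littermate mice aged 8 to 11 weeks, all 14 days after 0.8 U/kg of bleomycin into the trachea, a drug that injures the lung and induces fibrosis. The Tubb3-/- mice were homozygous for a Tubb3-Cre knock-in, in which Cre sits at the start codon of the gene for the neuronal tubulin Tuj1. There was no library from an uninjured lung, so no level below is relative to one. From each mouse a whole-cell suspension, depleted of red cells only, and a mural cell-enriched suspension were tagged. The suspensions of all mice were then pooled by kind, and each pool was sorted and captured together. Each library below is the part of a pool that carried the tag of a mouse, not a separate capture. The mural cell-enriched suspension was depleted of CD31, CD45, EpCAM and TER-119 cells and then sorted into MCAM+ PDGFRα- and MCAM- cells, mixed 1:1. All lungs had been digested at 37 °C for 60 min before capture.

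Il6, Cxcl1 and Mmp3 are classic products of the acute response of fibroblasts to cytokines and injury. Receptors for interleukin-1, tumour necrosis factor and microbial products release NF-kB from its inhibitor in the cytoplasm, while stress and growth signals raise AP-1 factors of the Fos and Jun families. Both bind short motifs near the start sites of such genes. Interleukin-6 signals to leukocytes and stromal cells through the receptor subunit gp130, Cxcl1 attracts neutrophils and Mmp3 (stromelysin 1) cleaves matrix proteins. Fgf23 is a phosphate-regulating hormone known chiefly from bone, and Itpkc phosphorylates inositol trisphosphate, the messenger that opens calcium stores. Immediate-early and NF-kB genes are also known to be induced while tissue is digested to single cells. All 4 lungs were digested alike, so a state present in the lung and one raised in the tube cannot be told apart here.

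The sequences around the start sites of the 3 genes that give the cells their name are shown because the genes that accompanied them, described further on, include many NF-kB and AP-1 genes. Each run holds 250 bases before and 50 bases after the start (RefSeq, GRCm38.p6), with matches to the motifs searched in capitals.
Il6, chr5:30012864-30013163, plus strand: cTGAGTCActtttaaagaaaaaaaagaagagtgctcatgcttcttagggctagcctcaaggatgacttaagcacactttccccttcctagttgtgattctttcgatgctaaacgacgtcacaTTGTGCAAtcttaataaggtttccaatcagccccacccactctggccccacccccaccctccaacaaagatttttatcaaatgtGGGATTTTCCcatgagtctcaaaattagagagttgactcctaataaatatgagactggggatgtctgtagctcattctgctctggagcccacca
Cxcl1, chr5:90890995-90891294, plus strand: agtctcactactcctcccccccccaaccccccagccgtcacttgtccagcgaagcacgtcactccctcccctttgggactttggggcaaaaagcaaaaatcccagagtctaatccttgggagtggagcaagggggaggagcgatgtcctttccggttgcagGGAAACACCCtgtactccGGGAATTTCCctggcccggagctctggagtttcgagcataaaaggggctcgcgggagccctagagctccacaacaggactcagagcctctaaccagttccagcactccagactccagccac
Mmp3, chr9:7445572-7445871, plus strand: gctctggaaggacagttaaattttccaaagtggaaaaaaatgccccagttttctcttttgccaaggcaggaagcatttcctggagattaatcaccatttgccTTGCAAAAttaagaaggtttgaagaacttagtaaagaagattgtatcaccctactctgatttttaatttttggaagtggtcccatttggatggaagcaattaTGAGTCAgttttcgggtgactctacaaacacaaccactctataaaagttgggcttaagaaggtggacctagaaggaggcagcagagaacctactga
The letters searched, on both strands, were GGGNNTTTCC for NF-kB, TGANTCA for AP-1, TTNNGCAA for C/EBP and TGACGTCA for the cyclic AMP response element (CRE). The Il6 run held the first 3 motifs, with the NF-kB match GGGATTTTCC from -44 to -35 relative to the start, the AP-1 match TGAGTCA from -249 to -243 and the C/EBP match TTGTGCAA from -128 to -121. Cxcl1 had a pair of NF-kB matches, GGGAATTTCC from -71 to -62 and, on the minus strand, the letters GGAAACACCC from -89 to -80. Mmp3 had an AP-1 match, TGAGTCA, from -46 to -40 and a C/EBP match on the minus strand, TTGCAAAA, from -148 to -141, and no NF-kB match in this window. Over 27025 mouse promoter runs of the same length, 1.62% held the NF-kB letters, 7.93% the AP-1 letters, 10.8% the C/EBP letters and 1.88% the CRE letters, which none of the 3 runs held. The corresponding run of Fgf23 held a C/EBP match only, and that of Itpkc held no match. Of the genes that come up below, the Cxcl2 run held a pair of NF-kB matches, that of Nfkbia an NF-kB match, that of Ptgs2 a C/EBP match and that of Ch25h a C/EBP and a CRE match. No match overlapped another, and a match of letters is not a measured binding site. In the GENCODE vM21 annotation Il6 (ENSMUSG00000025746) spans chr5:30013114-30019981, Cxcl1 (ENSMUSG00000029380) chr5:90891241-90893115 and Mmp3 (ENSMUSG00000043613) chr9:7445822-7455975, all on the plus strand.

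The libraries held 41462258 to 95036340 gene UMIs each, and the members of a mouse together 4155288 to 6330951. Each library's own tag made up 88.1% to 94.7% of its tag UMIs. No barcode was shared by libraries of the same pool, which the split of a pool by tag requires. Between the pools 59 barcodes were shared, none of them by members in both pools. Tubb3 itself, as a check of the labels, was at 1.93 and 0.868 CPM (UMIs of a gene scaled to a common library total) in the WT and 0.262 and 0.321 CPM in the Tubb3-/- whole-cell libraries, and at 5.49 and 3.67 against 0.789 and 0.68 CPM in the mural cell-enriched libraries. In members, after the scaling of the fit below, it stood at 10.7, 2.59, 0.16 and 1.37 CPM in WT 1, WT 2, Tubb3-/- 1 and Tubb3-/- 2, and no Cre UMI was found in any member. Members of the Tubb3-/- mice were sequenced more deeply, with medians of 19298 and 18168 UMIs against 15936 and 15688 in WT.

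The name fibroblast was clear for part of the members only. Of the 1179, 641 (54.4%) carried the fibroblast receptor gene Pdgfra and fewer than 5 UMIs each of mural and of mesothelial genes. Another 287 (24.3%) held 5 or more UMIs of mural genes (among them Notch3, Cspg4 and the smooth muscle genes Myh11 and Cnn1), 127 (10.8%) held 5 or more of mesothelial genes (among them Msln and Upk3b), 11 held both and 113 (9.58%) had neither these nor Pdgfra. Pdgfra was also seen in 36.6% of the 287 mural members, 79.5% of the 127 mesothelial members and 81.8% of the 11 with both. Below, Pdgfra members or cells are those of the first group only. The make-up followed the kind of library. Pdgfra cells without mural or mesothelial genes were 76.2% of the 151 members from whole-cell libraries and 51.2% of the 1028 from mural cell-enriched libraries. By mouse they were 54.8% and 62.5% in WT and 48.5% and 52.9% in Tubb3-/-. Members were found in each lineage, as 8.79% of the Pdgfra gate cells, 6.44% of the mural and 8.46% of the mesothelial gate cells. The marker sum of endothelial genes in members was at most 38.7 CPM, with Cdh5 at 0 by the rule, that of epithelial genes 307 to 412 CPM and that of immune genes 107 to 155 CPM. The cells are named below by the genes of the rule. Where a result was repeated in strict Pdgfra cells, these were gate cells with at least 2 UMIs of Pdgfra, none of 5 pericyte genes and at most 1 of mesothelial genes, a definition chosen after the marker levels were seen, and 28 to 52 members of a mouse met it.

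Among the 5 genes that chose them, the members most often held Cxcl1, which was seen in 93.2% of members, then Il6 in 86.6%, Itpkc in 75.8%, Mmp3 in 73.9% and Fgf23 in 11%. These shares follow from the rule and are a description. The most frequent combination was Il6 with Mmp3, Cxcl1 and Itpkc, in 302 members (25.6%), then Il6 with Cxcl1 and Itpkc in 277 and Il6 with Mmp3 and Cxcl1 in 259. All 5 genes were held by 63 members, 4 by 352 and exactly 3 by 764. Fgf23 was the rarest and the most uneven between lineages, being seen in 15.6% of the Pdgfra members, 7.87% of the mesothelial and 5.23% of the mural members. Mmp3 was at 894 CPM in Pdgfra members, 561 CPM in mesothelial and 289.8 CPM in mural members, while Cxcl1 was at 845, 672 and 670.1 CPM.

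Free RNA in the suspension could contribute UMIs of these genes to any cell, so the same shares were taken in immune cells. In immune cells with Ptprc and no Col1a2, Il6 was seen in 9.61%, Cxcl1 in 21% and Mmp3 in 6.29% of 3767 cells, at a median of 7107 UMIs against 17000 in members. Thinned to 5000 UMIs per cell, Il6 was seen in 5.73% of these immune cells, 28% of the gate cells that were not members and 59.7% of members. The shares of Il6 differed between these groups and were highest in members, as the rule requires. The rule counts single UMIs, however, and some were present in immune cells too. Which part of those was free RNA was not tested.

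The edges of the rule were crowded. Another 1482 gate cells met every other condition and held 2 of the 5 genes, against the 764 members that held exactly 3. Of 5111 gate cells with at least 3 of the 5 genes, 3932 were left out, 3018 of them with Hhip, 1697 with Pi16, 611 with Cthrc1 and 251 with Lcn2 above the limit, and 1469 for more than 1 of these reasons. A single UMI of Hhip alone kept out 513 cells and a single UMI of Pi16 alone 192. Depth mattered too. Members were 4.69%, 7.49%, 9.23% and 8.32% of the gate cells in 4 bins of equal size, from the shallowest to the deepest cells. After every cell was thinned to 5000 UMIs, the rule found 1092 members, of which 488 had been members before. Medians of 4322 genes and 3.28% mitochondrial UMIs in members stood beside 4176 genes and 3.34% in the other gate cells. Doublet calls fell on 3.48% of members and 2.49% of the other gate cells.

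The level of each gene of the rule was taken over the summed UMIs of the members of a mouse, in CPM, and mice are given in the order WT 1, WT 2, Tubb3-/- 1 and Tubb3-/- 2. Il6 was at 691, 468, 328 and 353 CPM in members and at 411, 238, 179 and 149.9 CPM in the other gate cells. Mmp3 was at 725, 603, 619 and 691 CPM against 347, 251, 223 and 231 CPM. Cxcl1 was at 1409, 556, 582 and 472 CPM against 675, 331, 257 and 218 CPM. In each mouse members lay above the other gate cells for all 3 genes, as the rule requires, and the members of WT 1 stood apart from those of the other mice for Cxcl1. Fgf23 was at 50.5, 47.7, 10.4 and 44.1 CPM and Itpkc at 259, 155, 149 and 121 CPM in members. For Fgf23 the members of Tubb3-/- 1 were close to the level of the other gate cells of that mouse, 9.22 CPM.

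**Figure D1:**
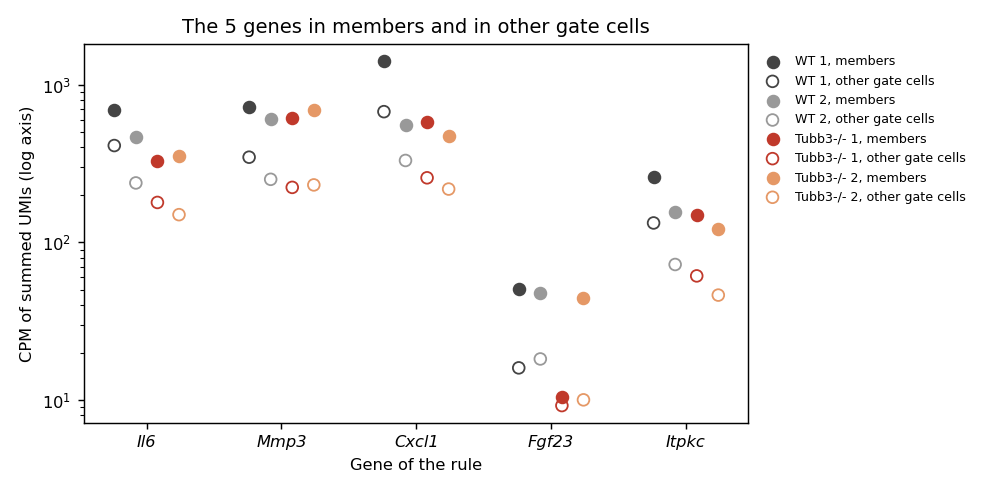
CPM of the 5 genes of the rule (log axis) in the summed members (filled points) and the other gate cells (open points) of each mouse. Cxcl1 in WT 1 members, at 1409 CPM, lies above the other 3 mice, which sit between 472 and 582 CPM, and Fgf23 in Tubb3-/- 1 members is at 10.4 CPM.

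The same genes were not low in the gate cells that the rule set aside. The other gate cells were split, in this order, into cells with 2 or more UMIs of Lcn2 (468), with 2 or more of Cthrc1 (1668), with Pi16 (2768), with Hhip (4695) and the rest (5086), which by construction hold fewer than 3 of the 5 genes. Il6 had a median over mice of 411 CPM in members, 399 CPM in Pi16 cells, 277 CPM in Lcn2 cells, 223 CPM in Hhip cells, 158 CPM in Cthrc1 cells and 56.5 CPM in the rest. In Pi16 cells the mice stood at 744, 422, 375 and 277 CPM, a range that overlaps that of members, so that Il6 did not set members apart from Pi16 cells beyond the spread between mice. Mmp3 followed the order members 655, Lcn2 cells 472, Pi16 cells 382, Hhip cells 283, Cthrc1 cells 225 and the rest 73.5 CPM. For Cxcl1 the medians were 569 CPM in members, 524 in Lcn2 cells, 445 in Pi16 cells, 290.0 in Cthrc1 cells, 284 in Hhip cells and 169 in the rest, and members and Lcn2 cells overlapped across mice. Saa3, an acute-phase gene of inflammatory fibroblasts, did separate the latter pair, at 166 CPM in members and 1603 CPM in Lcn2 cells, although Lcn2 was itself a limit of the rule.

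Members were then compared with the other gate cells for what they shared beyond the rule. Since the rule made this contrast, the differences are a description with no test. A gene was called when its log2 difference was at least 1, or at most -1, in each of the 4 mice, and by this standard 2 of 9022 genes were higher (0.0222%) and 34 were lower (0.377%) in members. The higher pair was Mmp3 itself and Ch25h, which encodes cholesterol 25-hydroxylase, an interferon- and NF-kB-responsive enzyme. Ch25h stood at 63.0, 70.8, 42.5 and 52.1 CPM in members and 27.6, 29.3, 19.1 and 21.4 CPM in the other gate cells, a median log2 difference of 1.20, and members did not overlap the pooled other gate cells. After these came, besides the genes of the rule, Txndc11 (median log2 difference 1.12), the long non-coding transcript A730049H05Rik (1.09), the collagen gene Col28a1 (0.94), the neutrophil chemokine Cxcl2 (0.91), the elongation factor Ell2 (0.84), Rnf217 (0.83) and Ptgs2 (0.82), the inducible cyclooxygenase of prostaglandin synthesis. Ptgs2 was at 610.4, 249.6, 308 and 264 CPM in members. Tnfaip3 (0.81) and Nfkb1 (0.79), a feedback inhibitor and the p50 subunit of the NF-kB pathway, Rasgef1b (0.80), the AP-1 partner Maff (0.79), Cwc25 (0.76), Tnfaip2 (0.75), the polyamine enzyme Odc1 (0.73) and the nuclear receptor Nr4a2 (0.72) completed the 20 highest. All of these medians were positive in strict Pdgfra cells too, except that of Cxcl2, which was -0.37 there.

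These genes were not low in every class of the other gate cells. Ch25h was at 91.5, 51.7, 33.1 and 36.9 CPM in Lcn2 cells, which overlaps the members, and at a median over mice of 32.8 CPM in Hhip cells and 24.2 CPM in Pi16 cells. Ptgs2 had a median of 302 CPM in Pi16 cells, 286 CPM in members and 257 CPM in Lcn2 cells. Nfkb1 had a median of 822 CPM in members, 730.1 CPM in Pi16 cells, 642 CPM in Lcn2 cells and 242 CPM in the rest, and Tnfaip3 followed with 228, 182, 177 and 78.6 CPM. For Ptgs2, Nfkb1 and Tnfaip3 the ranges over mice of members, Pi16 cells and Lcn2 cells overlapped. Within each mouse, however, Nfkb1 and Tnfaip3 were higher in members than in Pi16 and in Lcn2 cells. Ptgs2 was lower in members than in Pi16 cells in both WT mice and higher in both Tubb3-/- mice. None of these differences was tested.

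**Figure D2:**
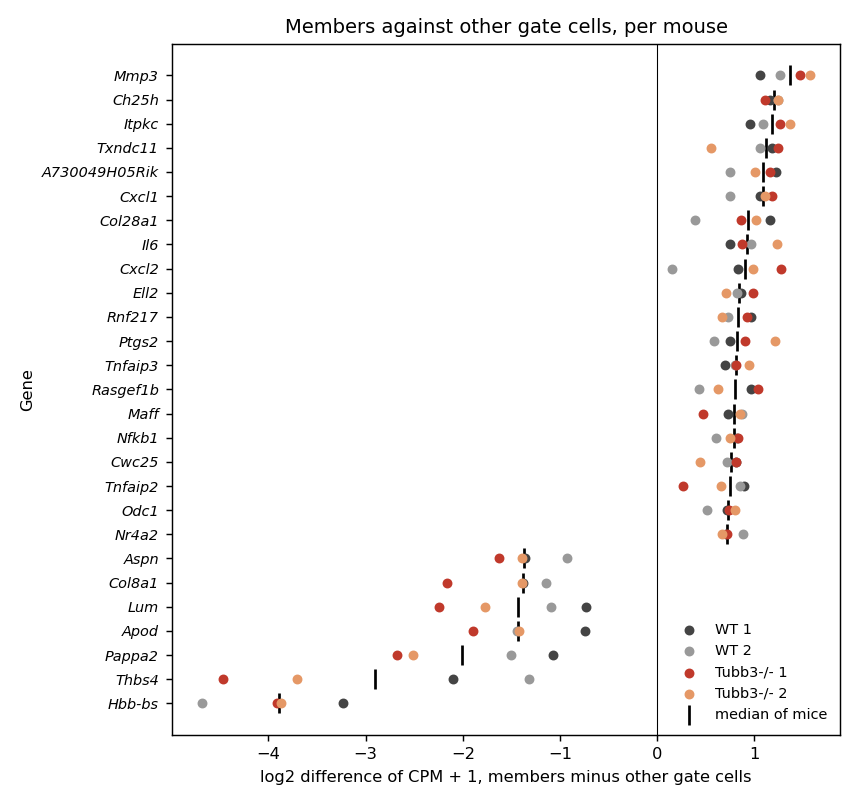
Log2 difference of CPM + 1 between members and other gate cells in each mouse, with the median over mice as a bar, for the 20 highest and 7 of the 10 lowest genes with at least 50 CPM in the higher group. The genes on the right lie above 0 in all 4 mice, and Thbs4 and Pappa2 lie further left in the Tubb3-/- than in the WT mice.

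By group, 23 measured genes of the NF-kB list, made of its subunits, inhibitors and targets, had a median log2 difference of 0.37, and 19 of the 23 were higher in members in all 4 mice, against 889 of all 9022 genes, whose median was -0.07, while 2649 of these were lower in all 4 mice. The vascular adhesion gene Vcam1 (0.64), the survival gene Birc3 (0.65), the adhesion gene Icam1 (0.49), the inhibitor gene Nfkbia (0.46) and Nfkbiz (0.54), a cofactor for Il6 transcription, were among them. Of 28 immediate-early genes, 22 were higher in all 4 mice, with a median of 0.36, among them Gadd45b (0.60), Csrnp1 (0.61), Nr4a1 (0.44), Klf4 (0.44) and Junb (0.39), while Fos stood at 0.25 and Atf3 at 0.07 and were not higher in each mouse. Heat-shock genes did not follow, with 3 of 15 higher in all 4 mice and a median of -0.02. Metallothioneins Mt1 (0.51) and Mt2 (0.45) were higher, in a stress list of which 6 of 13 were higher in all 4 mice. These lists were chosen with earlier results of these data known.

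The signalling partners of the named genes gave a mixed picture. Among the Il6 family, 5 of 9 measured genes without Il6 were higher in all 4 mice, with Lif at 49.0, 25.03, 47.9 and 25.7 CPM in members and a median log2 difference of 0.85. The oncostatin M receptor Osmr (0.38) and Stat3 (0.24), which relays gp130 signals, were slightly higher, and Il6st, which encodes gp130, was level at 0.08. Of 11 chemokine genes besides Cxcl1, 8 were higher in all 4 mice, among them the monocyte attractant Ccl2 (0.53) and the interferon-inducible Cxcl10 (0.52). In strict Pdgfra cells, however, the median of these 11 was -0.16, against 0.33 in all gate cells. Of 18 proteases and inhibitors besides Mmp3, 7 were higher and 4 lower in all 4 mice, with the aggrecan-cleaving Adamts4 (0.70) and Adamts9 (0.62) on the high side and the metalloprotease inhibitor Timp1 (-0.35) on the low side. Receptors of interleukin-1 and tumour necrosis factor differed little, with Il1r1 at 0.27, Il1rap at -0.04 and Tnfrsf1a at 0.05. Of the genes of phosphate handling and Fgf23 signalling, without Fgf23 itself, none of 10 was higher in all 4 mice and 4 were lower, shares near those of all genes.

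On the low side stood, besides Hhip, Pi16 and Cthrc1, which the rule set, the haemoglobin gene Hbb-bs at 7.41, 9.63, 8.06 and 9.15 CPM in members and 77.8, 272, 135 and 147 CPM in the other gate cells. All 4 red-cell genes were lower in all 4 mice, and in strict Pdgfra cells the difference of Hbb-bs was -0.54. Next came Thbs4 (median log2 difference -2.90), a matricellular gene, Pappa2 (-2.01, and 0.21 in strict Pdgfra cells), Apod (-1.44), the proteoglycan genes Lum (-1.43) and Aspn (-1.37) and Col8a1 (-1.38). Some of these track the cells that the rule set aside. Thbs4 was at 333 CPM in Cthrc1 cells and 5.82 CPM in members, Lum at 538 and 59.7 CPM, and Pappa2 was at 117 CPM in Hhip cells and 11.4 CPM in members. Matrix genes as a group were level, with a median of 0.00, 4 higher and 6 lower of 23, which is near the share of all genes lower in all 4 mice (2649 of 9022), and in the fibrotic list 5 of 11 genes without Cthrc1 were lower in all 4 mice, with Postn at -0.73. Of 12 alveolar fibroblast genes 8 were higher in all 4 mice with a median of 0.27, but in strict Pdgfra cells the median was 0.01. Pdgfra cells were 54.4% of members and 45.3% of the other gate cells.

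To describe how the accompanying genes varied with the number of the 5 genes seen, the gate cells with Pdgfra, fewer than 5 UMIs each of mural and of mesothelial genes, and Lcn2, Cthrc1, Pi16 and Hhip within the limits of the rule were split by that number. There were 259, 426, 381, 357, 237 and 47 such cells with 0, 1, 2, 3, 4 and 5 of the genes, at median depths rising from 10554 to 20126 UMIs. Against cells with none, the NF-kB list had median log2 differences over mice of 0.38, 0.74, 1.16, 1.23 and 1.59 in cells with 1 to 5 genes. Nfkb1 itself went from 219 CPM in cells with none to 283, 471, 719, 1185 and 1545 CPM, and Ptgs2 from 47.7 to 632 CPM. Ch25h went from 6.11 to 76.1 CPM. The immediate-early list followed with 0.27, 0.52, 0.84, 1.00 and 1.04. Heat-shock genes stayed near 0, at 0.07, 0.10, 0.22, 0.10 and -0.06, with Hspa1a at 753 CPM in cells with none and 683 CPM in cells with all 5. Matrix genes also stood higher, at 0.09, 0.24, 0.26, 0.46 and 0.61, except in Tubb3-/- 1, whose cells with all 5 genes were at -0.31. Depth rose along the same axis, its part in these differences was not tested, and the steps are a description with no p.

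**Figure D3:**
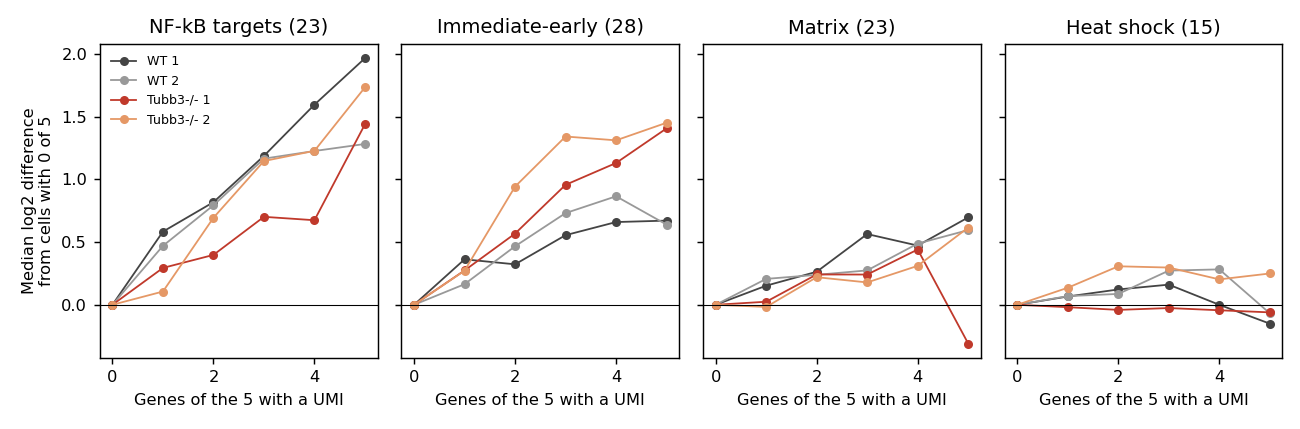
Median log2 difference of 4 gene lists between Pdgfra gate cells with 1 to 5 of the rule's genes and those with none, 1 line per mouse, with the number of genes per list in brackets. The NF-kB list reaches 1.28 to 1.96 with all 5 genes while the heat-shock list stays between -0.15 and 0.31 throughout.

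The first comparison that the design allows asked whether Tubb3-/- mice held fewer or more of these cells. Members were 9.2% (95% Wilson interval 8.33 to 10.2) and 8.004% (7.11 to 9.002) of gate cells in the WT mice and 6.63% (5.95 to 7.38) and 6.23% (5.54 to 7.01) in the Tubb3-/- mice, the intervals covering counting error only. The means were 8.6% ± 0.848 (SD, n = 2) and 6.43% ± 0.281 (SD, n = 2), and the genotypes did not overlap. With 2 mice against 2 an exact permutation test cannot go below p = 0.333, which it gave here (two-sided). In an edgeR quasi-likelihood fit of the cell numbers of the 6 classes, the log2 ratio of Tubb3-/- to WT was -0.42 (SE 0.18) with an adjusted p of 0.111, so no change was called. With the mouse number, which went with sex, as a block the adjusted p was 0.0187 (edgeR).

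The direction was carried by the mural cell-enriched libraries, in which members were 9.67% and 8.1% of WT and 6.53% and 6.15% of Tubb3-/- gate cells. In the whole-cell libraries, with 30 to 50 members each, the shares overlapped at 6.04% and 7.48% against 7.22% and 6.84%. Because the rule counts UMIs and Tubb3-/- cells were deeper, it was also applied after thinning every cell to 5000 UMIs, which gave 10.3% and 7.71% in WT and 5.68% and 4.75% in Tubb3-/- mice, with a log2 ratio of -0.79 and an adjusted p of 0.046 (edgeR). Of the 1092 cells that met the rule then, 488 had been members before, so most were not the members described above. Without the limits on Lcn2, Cthrc1, Pi16 and Hhip the shares were 38.4% and 29.9% against 31.9% and 28.5%, which overlap. The same cells after thinning were 23.9% and 15.1% against 11.7% and 10.2%. In the same fit the class with 2 or more UMIs of Cthrc1 rose in Tubb3-/- mice by 1.35 on the log2 scale (adjusted p = 0.0113, edgeR), and the rule keeps such cells from being members, so the shares are not independent of each other. The class with 2 or more UMIs of Lcn2 stood at 1.09 (adjusted p = 0.0572, edgeR).

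**Figure D4:**
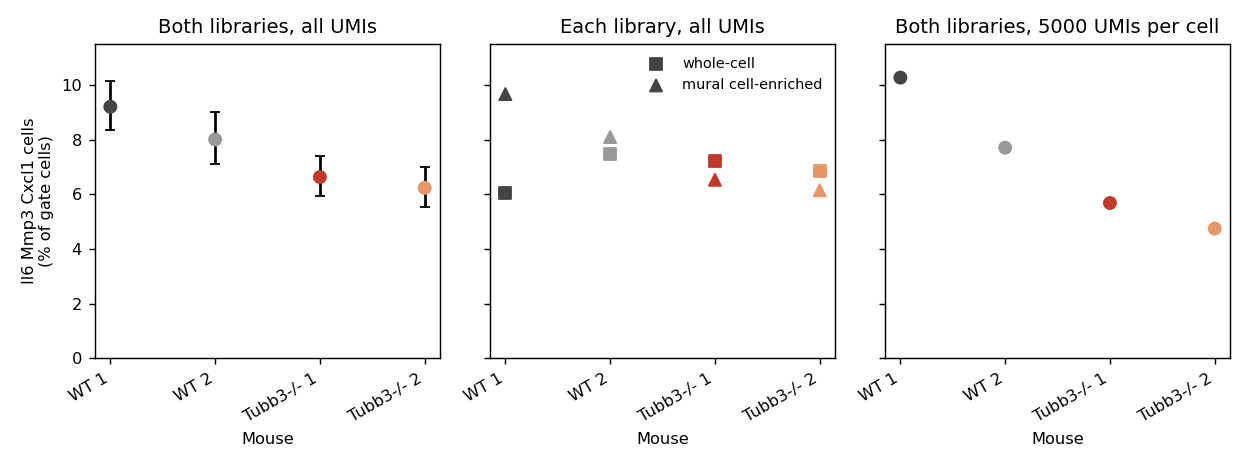
Members as a percentage of gate cells in each mouse, from both libraries with 95% Wilson intervals (left) and from each kind of library (centre). On the right are the cells that met the rule after thinning to 5000 UMIs per cell, most of which were not members before. The WT mice lie above the Tubb3-/- mice on the left and right, and overlap them in the whole-cell libraries.

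Gene by gene, the share of gate cells with a UMI was lower in both Tubb3-/- mice after thinning for 4 of the 5 genes. Il6 was seen in 39.4% and 33.6% of WT and 27.5% and 26.9% of Tubb3-/- gate cells. Cxcl1 was seen in 52.4% and 42.3% against 37.6% and 34.9%, and Itpkc in 27.7% and 19.2% against 17.5% and 14.4%. Fgf23 was seen in 3.41% and 2.65% against 2.34% and 2.76%, which overlap (exact permutation p = 0.667). For Mmp3 the shares were close, at 26.8% and 25.3% against 23.6% and 25.2%. The exact permutation p was 0.333 for Il6, Cxcl1, Itpkc and Mmp3, the smallest this design allows. Without thinning, the means in WT and Tubb3-/- mice were 48.1% and 44.1% for Il6, 63.6% and 60.8% for Cxcl1, 37.4% and 33.0% for Itpkc and 38.3% and 40.2% for Mmp3, so that Mmp3 turned direction with the depth.

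The second comparison asked how the members of the genotypes differed in expression. UMIs were summed over the members of each mouse, from both kinds of library, and tested with edgeR. The sums joined 30, 35, 50 and 36 members from whole-cell and 328, 218, 259 and 223 from mural cell-enriched libraries, in the order of mice above. No gene of 12619 passed an adjusted p of 0.05 (0%). At an unadjusted p under 0.05, 568 genes (4.5%) were higher and 937 (7.43%) lower in Tubb3-/- members, and DESeq2 called 184 genes on the same counts. The count of calls was not stable. With edgeR it was 785 with the mouse number as a block and 823 with no filter on low counts. No pairing by number is stated, but the number went with sex. In gate cells Xist stood at 17.7 CPM in WT 1 and 14.5 CPM in Tubb3-/- 1, and at 634 CPM in WT 2 and 622 CPM in Tubb3-/- 2. The count of calls also changed when either WT mouse was left out. The differences below are therefore given as sizes, with the share of the list at unadjusted p under 0.05 beside the shares for all genes above, and values are CPM after trimmed-mean scaling. Tubb3-/- members were deeper, and the rule counts UMIs. The part of depth in the choice of members, and so in these differences, was not tested.

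NF-kB genes stood lower in Tubb3-/- members. Of 23 tested, 13 were lower at unadjusted p under 0.05 and none was higher, with a median log2 fold change of -0.53 against 0.00 for all genes. Irf1, an interferon regulatory factor, was at 282, 212, 114 and 132 CPM (log2 fold change -1.004, SE 0.17, adjusted p = 0.104, edgeR). Birc3 was at 343, 261, 179 and 161 CPM and Icam1 at 296, 241, 142 and 170.5 CPM, with log2 fold changes of -0.83 and -0.78. Nfkb1 was at 1927, 819, 816 and 585 CPM (-0.97), with WT 1 far above the others and WT 2 and Tubb3-/- 1 close together. Rela, whose product is the main partner of p50, was level at 60.5, 55.8, 60.7 and 57.2 CPM. Without WT 1 the median of the list was -0.28, and in strict Pdgfra members 3 of 22 were lower at unadjusted p under 0.05, with a median of -0.45. In whole-cell libraries alone 4 of 22 were lower at that p, also with a median of -0.45.

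Immediate-early genes showed the same direction with less weight on WT 1. Of 28, 14 were lower and none higher at unadjusted p under 0.05, with a median of -0.39. Egr1, a growth-factor-induced transcription factor, was at 2036, 1999, 1393 and 1427 CPM (log2 fold change -0.52, SE 0.11). Fosb was at 1310.3, 1263, 896 and 735 CPM (-0.66) and Maff at 284, 229.9, 137 and 141 CPM (-0.89). For each of these 3 genes both WT mice lay above both Tubb3-/- mice, as they did for 2797 of all 12619 genes. Heat-shock genes had no member at unadjusted p under 0.05 and a median of -0.01. Among the genes of the rule, which its thresholds shape and which are given with no test, Il6 had a log2 fold change of -0.80, Cxcl1 of -0.94, Itpkc of -0.65, Fgf23 of -0.91 and Mmp3 of -0.05.

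Alveolar fibroblast genes were lower and matrix genes higher. In the alveolar list 9 of 12 were lower at unadjusted p under 0.05 and none higher, with a median of -0.62. Inmt, a methyltransferase of resting alveolar fibroblasts, was at 1333, 2089, 573 and 563 CPM (log2 fold change -1.59, SE 0.21, adjusted p = 0.0972, edgeR). Npnt, a matrix protein of the same cells, was at 907, 1222, 583 and 623 CPM (-0.82), and Tcf21, their lineage factor, at 200.1, 288, 119 and 146 CPM (-0.88). In the matrix list 12 of 24 were higher and none lower, with a median of 0.39. Col1a1, a chain of type I collagen, was at 1924, 1386, 2936 and 2942 CPM (0.83, SE 0.17), Fn1 (fibronectin) at 1781, 1209, 2862 and 2834 CPM (0.93) and Col3a1 at 3726, 2938, 4866 and 5206 CPM (0.60). The genotypes did not overlap for any of these 6 genes. The same held for 2696 of all 12619 genes on the higher side and 2797 on the lower side. In whole-cell libraries alone 2 of 12 alveolar genes were lower at unadjusted p under 0.05, with a median of -0.59. There 8 of 24 matrix genes were higher at that p, with a median of 0.33. Without WT 2 the median of the alveolar list was -0.36 and that of the matrix list 0.22, with 1 matrix gene then lower, and in strict Pdgfra members the alveolar median was -0.36 with 4 of 12 lower at unadjusted p under 0.05.

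Fibrotic and inflammatory fibroblast genes also stood higher, although the rule limits a leading gene of each list. Of 12 fibrotic genes 6 were higher at unadjusted p under 0.05, with a median of 0.69, among them Ltbp2 at 146, 118, 219.9 and 250.3 CPM (0.83), Runx1 (0.71) and the activin inhibitor Fst (1.58). The median of the fibrotic list was 0.39 without WT 2, and in strict Pdgfra members it was 0.23, with 3 of 10 genes higher at unadjusted p under 0.05 and 3 of 10 below 0. Of 8 inflammatory genes 4 were higher, namely Hp (1.55), the Wnt inhibitor Sfrp1 at 210.2, 175, 391.8 and 468 CPM (1.16), Cxcl12 (0.73) and Ifit1 (0.70). The protease inhibitor Timp1 was at 240.4, 170.3, 555 and 389 CPM (1.20). Mural genes, whose share of members differed between mice, had no gene at unadjusted p under 0.05, and their summed level in members was 1199.8, 806, 1303 and 1146 CPM. Fewer cells of a lineage and less RNA per cell cannot be told apart in these sums.

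**Figure D5:**
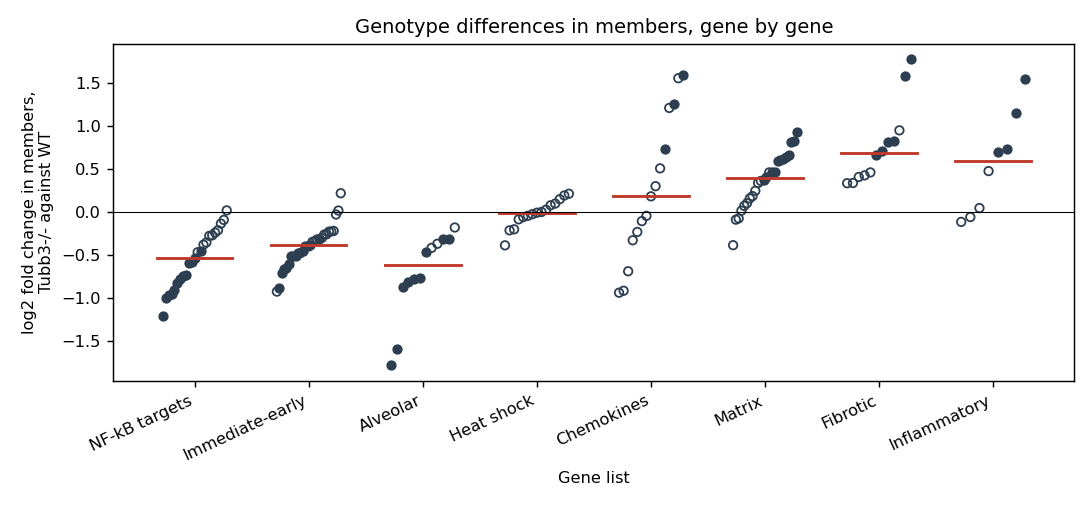
Log2 fold change of Tubb3-/- against WT in members for each gene of 8 lists, filled at unadjusted p under 0.05, with the list's median as a bar. The NF-kB, immediate-early and alveolar lists lie mostly below 0, the matrix, fibrotic and inflammatory lists mostly above, and heat-shock genes around 0.

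The same directions were seen in the gate cells as a whole. In all gate cells together the same fit gave 1426 genes higher (7.86%) and 1990 lower (11%) at unadjusted p under 0.05, of 18148, with none past the adjusted threshold. There the NF-kB list had 14 genes lower, the immediate-early list 17 and the alveolar list 8, and the matrix list had 17 higher and the fibrotic list 9. The members are among these cells, so the counts are not independent. The interaction of membership and genotype, which tests the difference itself, was passed by 4 of 16466 genes (0.0243%, edgeR), and no gene of the NF-kB list or of the immediate-early list was among them. At unadjusted p under 0.05 the interaction was negative for 7 of 24 matrix and 4 of 12 alveolar genes and positive for none. Of all genes 583 were negative and 545 positive. The median was -0.14 for both lists, so the rise of matrix genes was smaller in members. For Nfkb1 the interaction was 0.03 on the log2 scale (adjusted p = 0.975, edgeR).

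In 3 of those 4 genes the other gate cells were higher in Tubb3-/- mice and the members were not. Thbs4 was at 5.07, 6.76, 5.11 and 7.42 CPM in members and at 23.5, 16.8, 129 and 104 CPM in the other gate cells, an interaction of -2.43 (SE 0.35, adjusted p = 0.0494, edgeR). Lum was at 109, 48.8, 55.4 and 67.0 CPM in members and at 169.7, 96.7, 256 and 219 CPM in the others (-1.19, adjusted p = 0.0324, edgeR). Pappa2 was at 19.4, 6.28, 10.9 and 12.4 CPM in members and at 38.8, 18.1, 72.3 and 71.8 CPM in the others (-1.48, adjusted p = 0.0324, edgeR). Thbs4 was high in the Cthrc1 cells, at 172, 177, 489.6 and 561 CPM, and so was Lum, at 490.3, 561, 538 and 539 CPM. Pappa2 was high in the Hhip cells, at 84.5, 38.6, 169 and 149 CPM. The rule kept Cthrc1 and Hhip cells from being members, so these interactions are not independent of the rule. The fourth gene, the club cell secretory gene Scgb1a1, was at 98.3, 146, 134 and 143 CPM in members and at 361, 662, 172 and 184 CPM in the other gate cells (1.67, adjusted p = 1.73e-05, edgeR). Its level among the others stood apart in the Cthrc1 cells of WT 1, at 1667 CPM, and in the Hhip cells of WT 2, at 1118 CPM, against 97.1 to 145 CPM in the same classes of the other mice, and the rest were at 271 to 630.1 CPM in all 4 mice.

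The last comparison was between the libraries, with the mouse as a block. Members were 6.89% ± 0.628 (SD, n = 4) of gate cells in whole-cell and 7.61% ± 1.61 (SD, n = 4) in mural cell-enriched libraries, a difference of 0.716 percentage points (exact paired permutation p = 0.875, smallest possible 0.125). This difference turned on WT 1 and was -0.255 without it. In members, 363 genes (3.13%) were higher and 164 (1.41%) lower in the mural cell-enriched libraries among 11604 tested (edgeR, adjusted p under 0.05). Depletion, sort and capture run differed together and cannot be told apart. All 4 mice of a kind shared the sort and capture, so the libraries of a kind were not made separately. Levels are again CPM after trimmed-mean scaling.

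Mesothelial genes were among the largest rises, and mural genes rose by less. Of 8 mesothelial genes 7 rose, with Upk3b at 0 to 1.66 CPM in whole-cell and 31.5 to 139.6 CPM in mural cell-enriched members, Wt1 at 0 to 1.66 and 15.6 to 55.6 CPM and Msln at 2.71 to 4.97 and 88.9 to 177 CPM. Of 10 mural genes 5 rose, namely the smooth muscle genes Cnn1 (log2 2.58) and Myh11 (2.49) and Cspg4 (1.64), Mcam (1.52), a gene of the sort, and Notch3 (1.27). Gpm6a, AU021092, Muc16, Ptprz1, Erbb4, Grip1 and Wdr17 rose by 4.93 to 6.23 on the log2 scale. Pdgfra (-0.46), Lum (-1.28) and Fbln1 (-0.75) were lower. When only strict Pdgfra members were compared, 15 genes were called in place of 527.

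Immune genes were lower in mural cell-enriched members, while genes of the other depleted cell types were mixed. Of 7 epithelial genes tested 3 were higher and 1 was lower, and of 4 endothelial genes 1 was higher and none lower. All 5 immune genes tested were lower, among them Lyz2 at 310.2 to 351 CPM in whole-cell and 57.4 to 67.5 CPM in mural cell-enriched members. The macrophage genes Chil3 (-6.62) and Ccl6 (-4.88), Il1b (-3.95), Tyrobp (-3.48), Srgn (-3.30), the immunoglobulin gene Igkc (-5.12), the class II genes H2-Aa (-2.77), H2-Ab1 (-2.72) and H2-Eb1 (-2.68) and Scgb1a1 (-3.59) fell most. Scgb1a1 was at 562 to 674 CPM against 48.0 to 54.9 CPM, in cells without a UMI of Ptprc or Epcam. It was seen in 100% of members and in 99.6% of immune cells of the whole-cell libraries, and the part of free RNA in these values was not tested.

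The inflammatory genes were also compared between the libraries. Il6 was at 1297, 618, 473 and 568 CPM in whole-cell and at 661, 422, 302 and 299 CPM in mural cell-enriched members, lower in the latter in every mouse (log2 -0.77). Mmp3 stood at a log2 of -0.49 and Cxcl1 at -0.21. All 3 genes helped choose the members, so these are descriptions with no test. Of the NF-kB list Nfkb1 (-0.58), Tnfaip3 (-0.53) and Cebpd (-0.48) fell and Rnd1 rose. Of the immediate-early list 6 of 28 fell and none rose, with Ier2 (-0.52), Junb (-0.45) and Jun (-0.37) among them. Ccl2 went the other way, rising by 0.77 on the log2 scale. Pdgfra members were 76.2% of the whole-cell and 51.2% of the mural cell-enriched members. Over both kinds of library together they held more Il6 (562 CPM) than mural members did (291 CPM). The part of this make-up in the differences between libraries was not tested.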

How the data were processed

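Lungs of 2 WT and 2 Tubb3-/- mice were profiled with 10x 3′ v3.1 libraries carrying CellPlex tags. The deposited matrices hold UMI counts per gene and cell that the authors made with Cell Ranger 7.1.0 on mm10 with an added Cre gene, demultiplexed by tag. The annotation and the use of strand in counting were not given in the sources used here. From these counts, cells were filtered and the rule applied as given above. Counts were summed per mouse, or per mouse and library, and tested in edgeR 4.0.16 (quasi-likelihood, trimmed-mean scaling, filterByExpr, Benjamini-Hochberg adjustment, threshold 0.05), with DESeq2 1.42.0 as an alternative, in R 4.3.3. Cells were handled in Python 3.11.15 with scanpy 1.11.5, which marked doublets but removed none. Fits were tested on simulated counts. The mouse is the replicate. Besides the genes of the rule and of the lists, genes were named for the 10 largest rises and falls per test among genes called, at 10 CPM or more and in 1 direction in every mouse, and for the 20 highest and 10 lowest against the other gate cells at 50 CPM or more. Differences from other gate cells use log2(CPM + 1), which understates those of low genes. The members, lists and alternatives were chosen with earlier results of these data known.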

Additional observations from a re-analysis of the deposited data

Results flagged for a closer look

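Cxcl1 in members of WT 1 stood apart in both kinds of library. It was at 1781 CPM in the whole-cell library, where the other 3 mice lay between 512 and 583 CPM, and at 1383 CPM in the mural cell-enriched library, where they lay between 463 and 586 CPM. The gap to the nearest mouse was 0.945 and 0.867 of the whole range. Among 16 series of 4 libraries checked these were the 2 that passed, both for the same gene and mouse. Cxcl1 helped choose the members, so this is a description with no test. In all gate cells it was at 746 CPM in WT 1, 350.5 in WT 2, 279.9 in Tubb3-/- 1 and 234.9 in Tubb3-/- 2.

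For 4 genes the genotype difference in members differed from that in the other gate cells, by the interaction term in edgeR. Scgb1a1 gave 1.67 (adjusted p = 1.73e-05), Thbs4 -2.43 (0.0494), Pappa2 -1.48 (0.0324) and Lum -1.19 (0.0324), on the log2 scale. The value of Scgb1a1 was -0.21 in the whole-cell libraries alone. Thbs4, Pappa2 and Lum were each below the other gate cells in members of all 4 mice, which held at most 109 CPM on the scale of the fit. The rule keeps from members the Cthrc1 and Hhip cells in which these genes were high. Their interactions are therefore not independent of the rule, and its part in them was not tested.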

How the results depend on the processing

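With 2 mice a genotype, the depth of a single mouse and the make-up of its gate cells limit each genotype value, and whole-cell libraries gave 30 to 50 members each. The lower share of members in Tubb3-/- mice (log2 -0.42, adjusted p = 0.111, edgeR) became 0.061 in whole-cell libraries alone, and -0.79 (adjusted p = 0.046) with the rule applied after thinning. It kept its direction under every other alternative run, from -0.52 to -0.31 with a mouse left out. Mice were numbered 1 and 2 in both genotypes, without a stated pairing. With the number as a replicate block the share gave -0.42 with an adjusted p of 0.0187, and 785 genes were called between genotypes in place of none. Deviations of same-numbered mice from their group correlated at r = 0.323 over 8826 genes, and Xist stood at 17.7 CPM in WT 1, 634 in WT 2, 14.5 in Tubb3-/- 1 and 622 in Tubb3-/- 2, so the number went with sex.

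Calls between genotypes numbered 27 after thinning members, 184 with DESeq2 and 823 with no filter on low counts, and 0 to 486 with a mouse left out, a lone mouse being assumed to vary as the others. Calls for the interaction (4) became 2 with 4 or more of the genes, 15 with a mitochondrial limit of 10%, 2 and 1 in whole-cell and mural cell-enriched libraries alone, 12 with DESeq2, 241 with no filter, 0 against other cells without the genes of the rule, 0 in strict Pdgfra cells, and 44 to 122 with a mouse left out. Calls between libraries (527) became 75 with 4 or more genes, 295 after thinning, 897 with no filter, 214 with no replicate block and 15 in strict Pdgfra members, and 362 to 427 with a mouse left out. The share difference between libraries was -0.392 percentage points with 4 or more genes and -0.255 to 1.19 with a mouse left out, the lowest without WT 1. The cause of these changes was not tested.

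Of single genes between genotypes, Fgf23 turned to 0.78 in strict Pdgfra members and Postn to -0.54 in whole-cell libraries alone and -0.42 in strict Pdgfra members. The Scgb1a1 interaction turned to -0.21 in whole-cell libraries alone, and Mmp3 between libraries to 0.071 with 4 or more genes. The other values of named genes kept their direction in 137 cases between genotypes, with a further 32 passing the threshold, in 36 for the interaction, with 19 no longer passing, and in 257 between libraries, with 16 no longer passing. The strict Pdgfra cells, the shares without limits on 4 genes and the fit of all gate cells were chosen after seeing the data.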

Other observations

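Prostaglandin and hyaluronan genes did not move as a group in members. Of 14 measured, 4 were higher and 3 lower than in the other gate cells in all 4 mice, with a median log2 difference of 0.02, although Ptgs2 was among the highest of all genes and Tnfaip6, which modifies hyaluronan, stood at 0.44. The senescence and p53 list gave 2 higher and 2 lower of 12. Interferon genes gave 4 higher and 1 lower of 15. Of all genes 889 of 9022 were higher and 2649 lower in all 4 mice.

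Of the other cytokines, Tslp, an alarmin that acts on dendritic cells, had a log2 fold change of -1.01 between genotypes in members (adjusted p = 0.0972, edgeR), and stood 0.52 above the other gate cells. Il33, another alarmin, was lower in members than in the other gate cells, at -0.60.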
